A study of Mus musculus with 3 samples.

Results

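The receptors described here are those through which vessels read the vasoactive amines, purines and peptides: the receptors for catecholamines, serotonin, histamine, acetylcholine, extracellular nucleotides, natriuretic peptides, kinins, vasopressin, oxytocin, tachykinins, neuropeptide Y and vasoactive intestinal peptide. Members were chosen by gene symbol alone, and each was represented by the probe set with the highest mean among those that the platform annotation gives to a single gene. The choice gave 64 genes in 13 families, read by 66 probe sets, out of 19938 genes and 35557 probe sets on the arrays. Of 75 RefSeq symbols that fit the same rule, 11 had no probe set of their own and were not analysed here. The adrenergic family is covered only by Adra1b and Adra2c, and the adenosine receptors are not covered.

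All values come from endothelial cells of the renal medulla of adult male FVB/N mice carrying Tg(TIE2GFP)287Sato, a transgene in which the Tie2 promoter drives green fluorescent protein. The medulla was digested with collagenase and fluorescent cells were sorted, so every cell that fluoresced was included, whatever vessel it came from. There were 3 arrays in 1 group, each from a pool of 2 kidneys, and no second group, so levels are compared with fixed limits and not between conditions. The number of arrays limits the precision, and the values give RNA of a sorted population, in which fewer cells of a type and less RNA per cell cannot be told apart.

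Most of these receptors couple to G proteins. Their ligands reach the endothelium from blood, nerves and neighboring cells, and in many vessels receptors that raise calcium in endothelial cells lead to release of nitric oxide and prostacyclin, whereas receptors that raise cyclic AMP or cyclic GMP act on barrier function and vessel tone. The P2X receptors differ, being ion channels opened by ATP, and so do the natriuretic peptide receptors, which cross the membrane a single time and carry guanylyl cyclase in their cytoplasmic part or, in the case of Npr3, lack it. In the medulla, descending vasa recta are regulated by vasoactive hormones, and blood flow through them bears on salt excretion and on oxygen supply.

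The labelled cell type was read beside a list of its markers. That list was chosen with earlier results of these data known, so it is no preset check. All 12 endothelial markers, among them Pecam1 at a log2 level of 12.44 and Kdr at 12.17, lay above both limits used here. The median log2 levels of the arrays differed by at most 0.03. Of other cell types, the thick ascending limb list varied most between arrays, with a summed log2 level of 12.50, 11.71 and 11.39 in replicates 1, 2 and 3, and its gene Umod stood at 11.61, 10.40 and 9.49. Of 12 mural cell markers 2 were called above the background limit defined in the next paragraph, Notch3 at 8.51 and Kcnj8 at 8.87, while Acta2 and Pdgfrb stood at 7.56 on every array. None of the defining markers of other cell types was at 0, since array levels have a floor of their own.

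Levels were set against 100 units, or 6.64 on the log2 scale, which is the raw level that the study used as a filter, and against a background limit taken from these arrays. Olfactory, vomeronasal and bitter taste receptors, most of which are known from sensory cells, gave 1242 probe sets with a median log2 level of 6.24, and their 95th percentile of 7.94, or 246 units, served as the background limit. Of these sensory probe sets 34.8% also reached 100 units on all arrays, so a level over 100 units alone says little. Sensory receptors are G protein-coupled receptors like most of the 64 genes, although a few are known from the kidney, and the highest reached a log2 level of 10.91. A gene was called above or below a limit when limma gave a Benjamini-Hochberg adjusted p under 0.05 over all genes. Such a call says on which side of the limit the mean of the arrays lay, not that the receptor protein was present, and a gene called below is not shown to be silent.

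The sorted medullary cells gave levels above the background limit for a minority of the receptors, led by the complete natriuretic peptide family and the ATP-gated channel P2rx4. Of the 64 genes, 17 (26.6%) were called above the background limit, where 49.8% of all genes were, and 37 (57.8%) were called below it, where 37.8% of all genes were. The other 10 could not be told from the limit. Of the 64, 22 (34.4%) reached the limit on all arrays, beside 55.0% of all genes. The count above the limit rests on where it is put, being 26 with the 90th percentile of the sensory receptors (7.61) and 4 with the 99th (8.73). Against 100 units, 54 (84.4%) were called above, beside 83.0% of all genes, and 6 were called below, beside 12.0% of all genes. On all arrays 56 reached 100 units, beside 85.4% of all genes. The median log2 level was 7.63 for the receptors and 8.15 for all genes. Without the natriuretic peptide receptors the count above the background limit was 14 of 61.

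**Figure D1:**
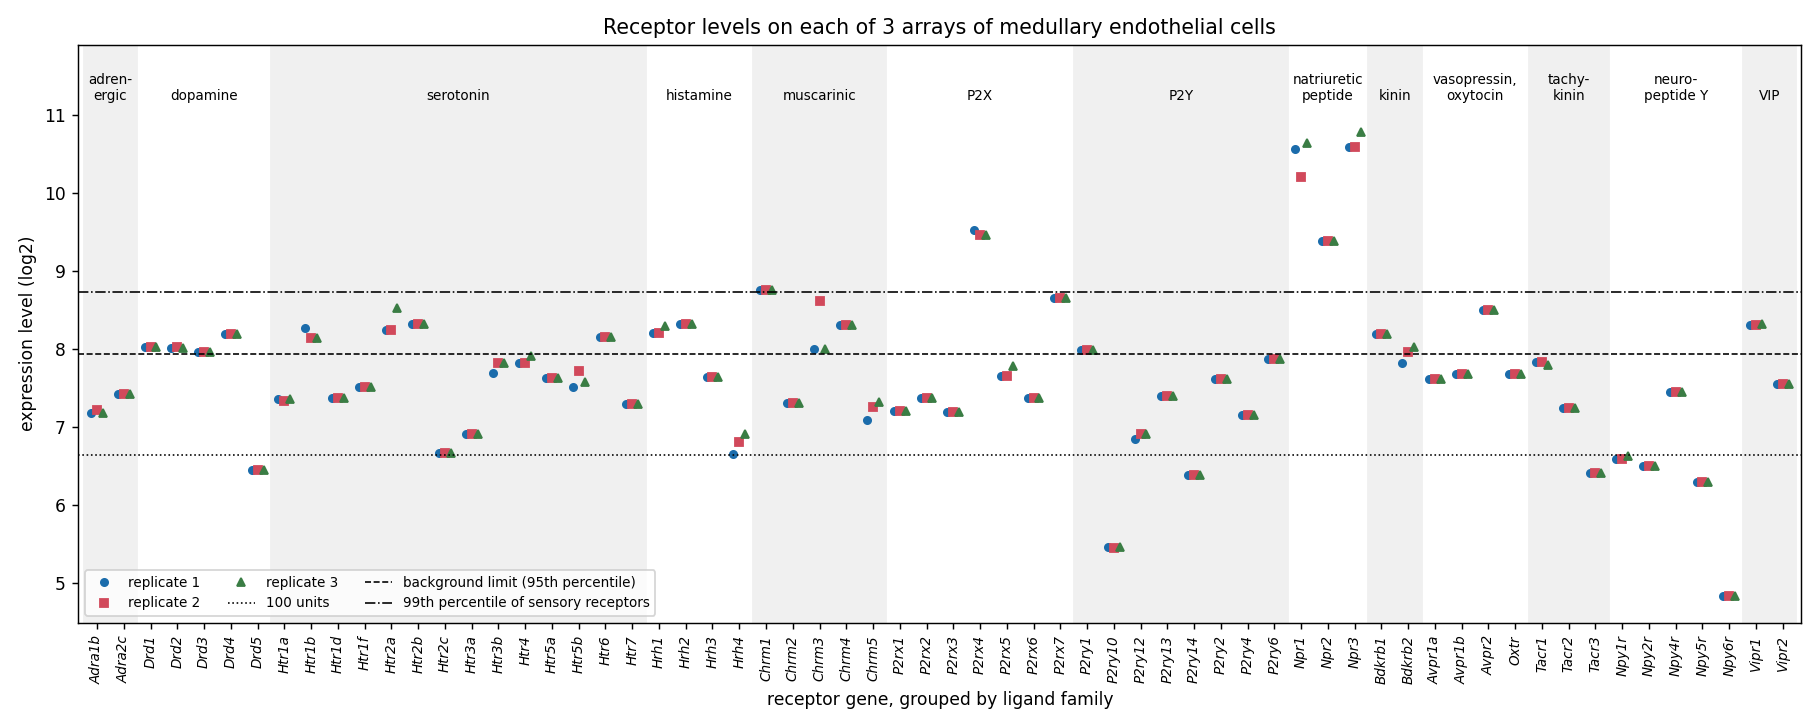
Log2 expression level (y axis) of each of the 64 receptor genes (x axis, grouped by ligand family), with 1 point for each of the 3 arrays and lines at 100 units (6.64), at the background limit (7.94) and at the 99th percentile of the sensory receptors (8.73). The 3 natriuretic peptide receptors and P2rx4 sit above all lines on every array, Chrm1 lies just over the upper line at 8.76, and the 5 neuropeptide Y receptors lie below the background limit.

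The spread between arrays was small for most of these genes, in a way that needs care. For 42 of the 64 (65.6%) the deposited values were the same on all 3 arrays, and 16 more had the same value on a pair of arrays, while 46.3% of all genes had a single value. RMA, which the study names, summarises all arrays together, and its part in these equal values was not tested. A small SD is therefore not described here as agreement between samples, although the fit does use it. Identical values leave no estimate of the error of a gene, so the variance of each gene was moderated towards that of genes with 3 different values. A gene with a single value still entered the fit with no spread of its own, which made its adjusted p smaller. When such genes were given the prior variance alone, the adjusted p by limma rose from 7.75e-05 to 0.000237 for Npr2. It rose from 0.000374 to 0.00128 for Chrm1, and Htr6 lost its call. Where a level is said to hold on all arrays or on every array, the arrays did not differ at the deposited precision. Any other level given as a single number is the mean of the 3 arrays, which may differ.

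The natriuretic peptide receptors were the family whose members all lay above the background limit. Npr1, the guanylyl cyclase that binds atrial and B-type natriuretic peptide, had log2 levels of 10.57, 10.21 and 10.65 in replicates 1, 2 and 3, with a mean of 10.47 ± 0.24 (SD, n = 3) or 1423 units. Replicate 2 was the lowest, and all 3 arrays lay well over the limit, which the mean exceeded by 2.53 log2 units (95% interval 2.22 to 2.85, adjusted p = 9.79e-05 by limma). Npr3, the receptor without a cyclase that takes up natriuretic peptides and clears them, stood at 10.59 in replicates 1 and 2 and at 10.79 in replicate 3. Its mean of 10.66 ± 0.11 (SD, n = 3), or 1619 units, exceeded the limit by 2.72 log2 units (adjusted p = 3.61e-05 by limma). Npr2, the guanylyl cyclase for C-type natriuretic peptide, stood at 9.39 on every array, 1.45 log2 units over the limit (adjusted p = 7.75e-05 by limma). The means of Npr1 and Npr3 were each higher than 99.9% of the sensory probe sets and that of Npr2 was higher than 99.6%. Beside them the thick ascending limb gene Umod had a mean of 10.50 and the collecting duct gene Aqp2 a mean of 9.54. The part of other cell types in the levels of these receptors and of P2rx4 was not tested.

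Among the purine receptors, P2rx4 and P2rx7 were called above the background limit, and none of the 8 P2Y receptors was. Over all 15 purine receptors the share above was 13.3%, beside 49.8% of all genes. P2rx4, an ATP-gated cation channel known in endothelial cells for calcium entry under flow, had a log2 level of 9.53 in replicate 1 and 9.47 in the other arrays. The mean of 9.49 ± 0.03 (SD, n = 3), or 720 units, lay 1.55 log2 units over the limit (adjusted p = 7.03e-05 by limma). P2rx7, a channel that opens at high concentrations of ATP and is well known from macrophages, stood at 8.66 on all arrays, 0.72 log2 units over the limit (adjusted p = 0.000547 by limma). Both genes are neighbors on mouse chromosome 5 in RefSeq. The 5 other channels, P2rx1, P2rx2, P2rx3, P2rx5 and P2rx6, were called below the limit with means from 7.20 to 7.70. Beside P2rx7, the leukocyte markers Ptprc at 6.68, Csf1r at 7.54 and Adgre1 at 6.18 were called below the limit, the macrophage genes Cd68 at 7.99 and C1qa at 7.91 could not be told from it, and 1 of 10 leukocyte genes, Cd3e at 8.52, was called above it. The part of leukocyte RNA in the level of P2rx7 was not tested.

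These 4 genes, the 3 natriuretic peptide receptors and P2rx4, lay furthest above the background limit among the receptors, and the sequence before their start sites is shown for that reason. Each line gives the 250 bases upstream of the RefSeq start, 5′ to 3′ on the strand of the gene, in assembly GRCm38.p6, which may not be the build behind the array. Capitals mark matches on either strand to an ETS motif (CGGAAG), a hypoxia response element (ACGTG), a GC box (GGGCGG) or a TATA box (TATAAA).
Npr1, chr3:90465867-90466116, minus strand: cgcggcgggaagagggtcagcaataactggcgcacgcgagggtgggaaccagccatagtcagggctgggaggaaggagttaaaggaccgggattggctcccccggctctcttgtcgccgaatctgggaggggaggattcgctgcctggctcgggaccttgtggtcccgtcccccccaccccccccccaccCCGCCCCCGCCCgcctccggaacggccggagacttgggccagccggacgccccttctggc
Npr2, chr4:43631685-43631934, plus strand: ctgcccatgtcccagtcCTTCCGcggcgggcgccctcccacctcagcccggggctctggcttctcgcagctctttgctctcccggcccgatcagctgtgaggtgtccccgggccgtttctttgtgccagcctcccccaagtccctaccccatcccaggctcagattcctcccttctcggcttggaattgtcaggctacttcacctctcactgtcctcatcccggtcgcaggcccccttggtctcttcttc
Npr3, chr15:11907372-11907621, minus strand: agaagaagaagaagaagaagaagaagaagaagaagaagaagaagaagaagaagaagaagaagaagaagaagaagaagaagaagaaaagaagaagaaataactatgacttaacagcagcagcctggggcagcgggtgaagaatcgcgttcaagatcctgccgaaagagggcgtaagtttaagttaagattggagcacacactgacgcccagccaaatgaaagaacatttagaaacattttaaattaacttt
P2rx4, chr5:122707294-122707543, plus strand: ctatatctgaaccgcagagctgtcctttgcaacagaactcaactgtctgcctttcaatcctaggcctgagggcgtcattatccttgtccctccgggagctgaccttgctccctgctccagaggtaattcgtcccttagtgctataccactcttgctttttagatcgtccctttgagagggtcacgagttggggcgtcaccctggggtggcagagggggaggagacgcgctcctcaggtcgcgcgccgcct

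The 4 windows have little in common by these letters. The Npr1 window was 70.4% G and C and held 2 GC box matches, the Npr2 window was 64.4% G and C and held 1 ETS match, and those of Npr3 (38.8%) and P2rx4 (57.2%) held none of the motifs. The Npr3 window opens with a run of the repeat GAA. Over all 32841 windows of this length, 32.7% held the GC box, 13.6% the ETS motif, 16.6% the hypoxia motif and 12.4% the TATA box. Of the 17 receptors above the background limit, 15 had a window. In these the GC box was found for 9 genes, the ETS motif for 3 (Npr2, Hrh1 and Htr1b), the hypoxia motif for Htr6 and the TATA box for Avpr2. Of all 52 receptors with a window, 25 held the GC box, 7 the ETS motif, 11 the hypoxia motif and 5 the TATA box. A receptor was counted once if any of its windows held the motif. These counts are therefore not directly comparable with the shares over all windows. A match describes letters and not binding.

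**Figure D2:**
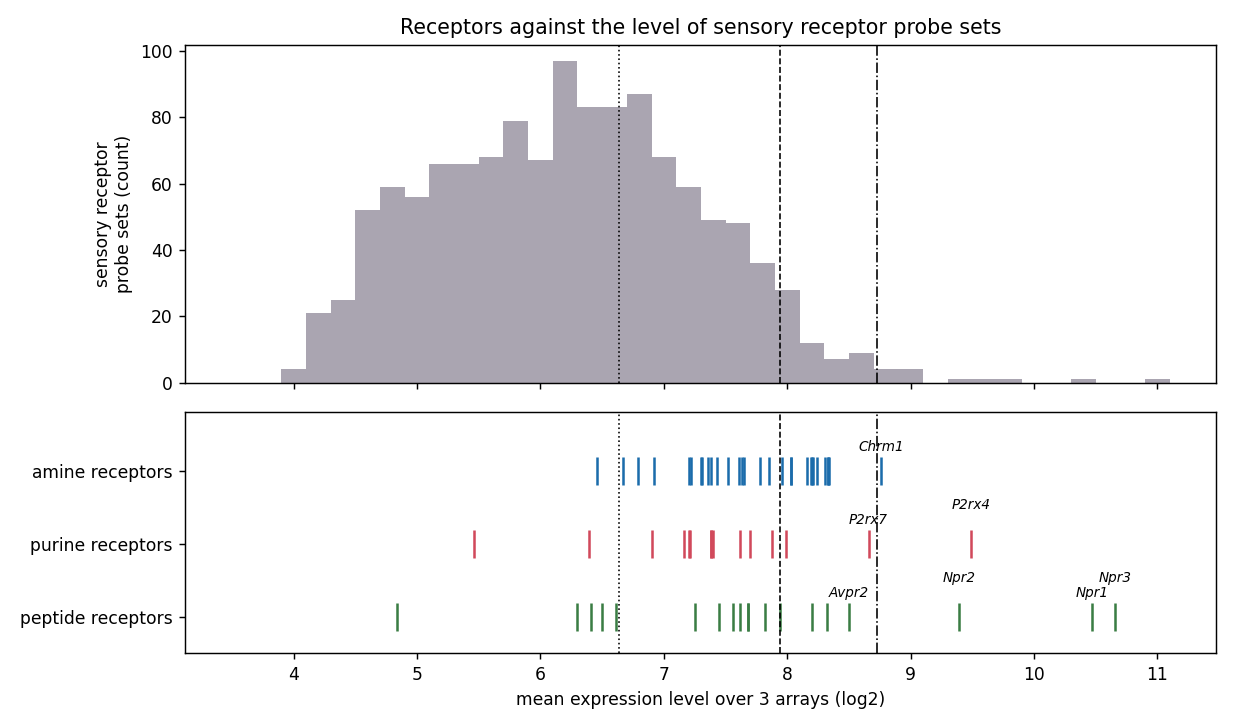
The upper panel counts the 1242 sensory receptor probe sets by mean log2 level over 3 arrays, and the lower panel marks the mean of each of the 64 receptors by ligand class, with lines at 100 units (6.64), the background limit (7.94) and the 99th percentile (8.73). Npr1, Npr2, Npr3 and P2rx4 lie above the upper line, where few sensory probe sets do, Chrm1 at 8.76 lies next to it, and the other receptors lie below it.

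Among the 30 amine receptors 9 (30%) were called above the background limit, beside 49.8% of all genes. All 9 lay within 1 log2 unit of the limit. Of the 5 muscarinic receptors, which bind acetylcholine, Chrm1 stood at 8.76 on all arrays (0.82 log2 units over the limit, adjusted p = 0.000374 by limma) and Chrm4 at 8.31 (0.36 over). Chrm3, the receptor through which acetylcholine relaxes many vessels by way of the endothelium, stood at 8.00 in replicates 1 and 3 and at 8.62 in replicate 2. Its mean of 8.21 ± 0.36 (SD, n = 3) could not be told from the limit (adjusted p = 0.184 by limma). Chrm2 at 7.31 and Chrm5, with 7.09, 7.26 and 7.32 in replicates 1, 2 and 3, were called below it.

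Histamine receptors split evenly, with 2 of 4 called above the background limit, a share close to the 49.8% of all genes. Hrh1, which raises endothelial calcium and permeability in many vessels, stood at 8.21 in replicates 1 and 2 and at 8.30 in replicate 3 (mean 8.24 ± 0.05, SD, n = 3), and Hrh2, which couples to cyclic AMP, stood at 8.33 on all arrays. These 2 were called above the background limit by 0.30 and 0.39 log2 units (adjusted p = 0.0114 and 0.00399 by limma). Hrh3 at 7.65, known mainly from neurons, and Hrh4, known mainly from blood cells, were called below. Hrh4 had 6.66, 6.81 and 6.92 in replicates 1, 2 and 3 and could not be told from 100 units (adjusted p = 0.141 by limma).

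Of the 14 serotonin receptors 4 (28.6%) were called above the background limit, beside 49.8% of all genes. Htr2a, which contracts smooth muscle and activates platelets, stood at 8.25 in replicates 1 and 2 and at 8.53 in replicate 3, with a mean of 8.34 ± 0.16 (SD, n = 3, 0.40 log2 units over the limit, adjusted p = 0.0147 by limma). Htr2b, known in endothelial cells and heart valves, stood at 8.33 on all arrays (adjusted p = 0.00415 by limma). Htr1b, the target of triptans, had 8.27 in replicate 1 and 8.15 in the others, and Htr6, known mainly from brain, stood at 8.16. Of the rest, Htr3b (7.78 ± 0.07, SD, n = 3) and Htr4 (7.85 ± 0.05) could not be told from the limit, and Htr1a, Htr1d, Htr1f, Htr2c, Htr3a, Htr5a, Htr5b and Htr7 were called below it with means from 6.67 to 7.63. Htr5b differed a little between arrays, with 7.52, 7.72 and 7.58 in replicates 1, 2 and 3. Htr2c at 6.67 could not be told from 100 units.

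Dopamine and adrenergic receptors lay near or under the limit. Drd4, known mainly from brain, stood at 8.20 on all arrays and was called above (0.26 log2 units, adjusted p = 0.0144 by limma). Drd1 at 8.03, Drd2 at 8.03 and Drd3 at 7.96 could not be told from it, and Drd5 at 6.46 was called below 100 units as well. Both measured adrenergic receptors were called below the background limit, Adra1b at 7.20 and Adra2c at 7.43.

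The peptide receptors other than the natriuretic family numbered 16, of which 3 (18.8%) were called above the background limit, beside 49.8% of all genes. Avpr2, the vasopressin receptor that acts through cyclic AMP and is best known from the collecting duct, stood at 8.50 on all arrays, 0.56 log2 units over the limit (adjusted p = 0.00127 by limma). Beside it the collecting duct water channel Aqp2 stood at 9.67, 9.67 and 9.27 in replicates 1, 2 and 3, and 4 of 10 genes in the collecting duct list, Avpr2 included, were called above. The list's summed log2 level ran from 11.46 to 11.60, its genes Scnn1b (7.29) and Scnn1g (6.43) were called below, and the part of carried-over collecting duct RNA in the level of Avpr2 was not tested. Avpr1a at 7.62, the vasopressin receptor that constricts vessels, Avpr1b at 7.68 and the oxytocin receptor Oxtr at 7.68 were called below the background limit.

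The kinin receptors, Bdkrb1 and Bdkrb2, mediate endothelial release of nitric oxide in many vessels. Bdkrb1, best known as a receptor induced by inflammation, stood at 8.20 on all arrays and was called above the limit (0.26 log2 units, adjusted p = 0.0149 by limma). Bdkrb2, the receptor for intact bradykinin, had 7.82, 7.96 and 8.03 in replicates 1, 2 and 3, on either side of the limit, and could not be told from it (7.94 ± 0.10, SD, n = 3, adjusted p = 0.972 by limma). Vipr1, a receptor for vasoactive intestinal peptide that acts through cyclic AMP, stood at 8.31 in replicates 1 and 2 and at 8.33 in replicate 3 and was called above (adjusted p = 0.00464 by limma). That call rests on 1 of its probe sets, since the other gave 7.61 on all arrays. Vipr2 at 7.56 was called below.

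Tachykinin and neuropeptide Y receptors gave no call above the background limit. Tacr1, the substance P receptor through which endothelial cells of small venules become leaky, stood at 7.84 in replicates 1 and 2 and at 7.80 in replicate 3 and could not be told from the limit (adjusted p = 0.131 by limma), while Tacr2 (7.25) and Tacr3 (6.41) were called below. All 5 neuropeptide Y receptors were called below the background limit, as were 37.8% of all genes. Npy4r was at 7.45, Npy1r, which contracts vessels in response to sympathetic nerves, at 6.61 ± 0.02 (SD, n = 3), Npy2r at 6.50, Npy5r at 6.30 and Npy6r at 4.84. Npy1r and Npy2r could not be told from 100 units, and Npy5r and Npy6r were called below 100 units.

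The P2Y receptors, which couple to G proteins, also gave no call above. P2ry1, the ADP receptor that raises endothelial calcium, stood at 7.99 and P2ry6, the UDP receptor, at 7.88 on all arrays, and neither could be told from the limit (adjusted p = 0.430 and 0.387 by limma). P2ry2, the ATP and UTP receptor best known for nitric oxide release from endothelium, stood at 7.62 on all arrays and was called below (adjusted p = 0.00789 by limma). P2ry4 at 7.16, the platelet receptor P2ry12 at 6.90 and P2ry13 at 7.40 were called below the background limit but above 100 units, and P2ry14 (6.39) and P2ry10 (5.46) were called below 100 units. Of platelet genes beside P2ry12 and P2rx1 (7.21), Pf4 stood at 6.56, 6.38 and 6.38 and Ppbp at 6.96, 6.96 and 7.45 in replicates 1, 2 and 3, all under the background limit, although Itga2b (8.24) and Gp9 (8.23) were called above it.

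At the deposited precision 42 of the 64 receptors did not differ between arrays, 16 had 2 different values and 6 had 3. An SD over 0.1 was found for 8 of the 64 receptors (12.5%), where 22.5% of all genes had one, and these were Chrm3, Npr1, Htr2a, Hrh4, Chrm5, Npr3, Bdkrb2 and Htr5b. Replicate 3 alone was the highest for 12 receptors, replicate 2 for 4 and replicate 1 for 2. Replicate 1 alone was the lowest for 6 receptors, replicate 2 for 3 and replicate 3 for 1. The same counts over all genes were not made, so this order is not described as a trait of the receptors. Chrm3 was higher in replicate 2 by 0.62 log2 units. In the same array the pericyte gene Higd1b stood at 7.91 against 7.10 and 7.17, and Aqp1 of descending vasa recta at 12.18 against 11.31 and 11.86. Among other mural genes Tagln was also highest in replicate 2 (7.87 against 7.76), but Rgs5 was highest in replicate 1 (7.94 against 7.61). Acta2 and Pdgfrb did not differ between arrays. The summed level of the mural list was 11.53, 11.57 and 11.52 in replicates 1, 2 and 3. Npr1 was lowest in replicate 2. The thick ascending limb list was highest in replicate 1 and lowest in replicate 3. The part of any of these cell types in the receptor values was not tested, and with 3 arrays of 1 group no receptor was tested for a difference between arrays.

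**Figure D3:**
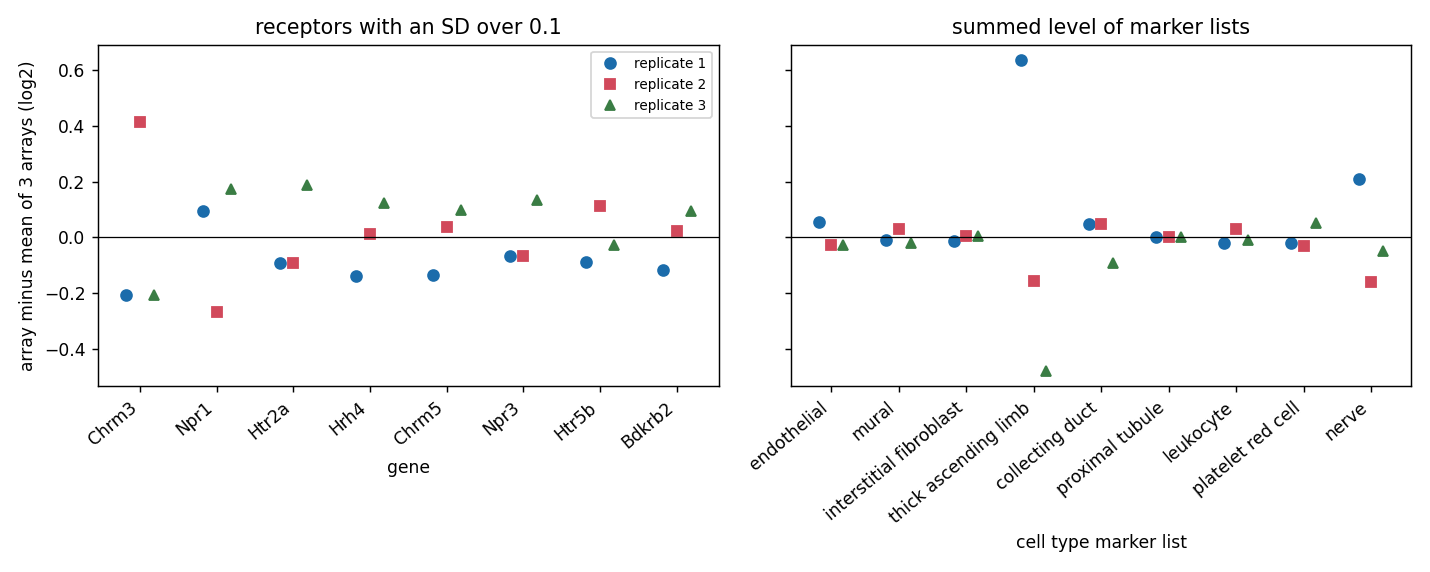
Each array's log2 level minus the mean of 3 arrays (y axis) for the 8 receptors with an SD over 0.1 (left) and for the summed level of each marker list (right), with 1 point for each array. Chrm3 is high in replicate 2 and Npr1 low in it, and the thick ascending limb list is high in replicate 1 (12.50 against 11.71 and 11.39).

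Enzymes that make or remove the ligands were read unevenly. For amines, Maoa, the monoamine oxidase that degrades serotonin and noradrenaline, was the single gene of 15 called above the background limit, at 10.31, 10.06 and 9.65 in replicates 1, 2 and 3 (mean 10.01 ± 0.33, SD, n = 3). Its partner Maob (6.66), the histamine methyltransferase Hnmt (6.68), the histidine decarboxylase Hdc (7.96) and the noradrenaline transporter Slc6a2 (7.98) were not, and 10 of the 15 were called below. For purines 8 of 16 genes were called above, a share close to the 49.8% of all genes. Entpd1, the ectonucleotidase CD39 that removes ATP and ADP from the vessel surface, stood at 11.37 in replicate 1 and at 10.72 in the others (10.94 ± 0.38, SD, n = 3).

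Other purine genes above the limit were Entpd5 (8.96), Enpp3 (8.62 ± 0.38), the adenosine deaminase Ada (8.86) and the nucleoside transporters Slc29a1 (8.67) and Slc29a2 (8.56). Nt5e, the ecto-nucleotidase CD73 that makes adenosine from AMP, was called below at 7.35 on all arrays, and so were Entpd2 (7.62), Entpd3 (7.74) and Entpd8 (7.51). Enpp3 was highest in replicate 1, with 8.62 in replicate 2 and 8.25 in replicate 3. The same order was seen for Maoa, for the tubule genes Umod and Slc12a1 and for the endothelial genes Kdr, Cdh5 and Eng. Of the other endothelial genes, Pecam1, Tek, Flt1 and Tie1 were lowest in replicate 2, and Slc14a1 and Aqp1 were lowest in replicate 1. Emcn was highest in replicate 2, and Plvap and Egfl7 did not differ between arrays. Of other thick ascending limb genes, Egf was highest in replicate 1 (8.76 against 8.16) and Cldn16 lowest in it (7.07 against 7.34). Kcnj1 stood at 8.84 on all arrays. The part of tubule RNA in these levels was not tested.

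For peptides 7 of 23 genes (30.4%) were called above the limit, beside 49.8% of all genes. Nppc, which encodes C-type natriuretic peptide, the ligand of Npr2 and an endothelial product in many vessels, stood at 8.14 on all arrays and was called above, while Nppa at 8.01 and Nppb at 7.96 could not be told from the limit. Furin, which processes many precursors, was at 8.98. Peptide hormones that are not known as products of vessels were also called above, with Oxt at 9.55, Ppy at 9.30, Npy at 8.47 and Pyy at 8.25, and the vasopressin gene Avp, named after its value was seen, stood at 7.93. The levels of Oxt and Ppy were close to those of P2rx4 (9.49) and Npr2 (9.39). The carboxypeptidase Cpd, named after its value was seen, had 12.37, 11.95 and 12.21 in replicates 1, 2 and 3. The kininogen Kng1 at 6.24 was called below 100 units and Kng2 ranged from 7.58 to 8.21.

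The G proteins and enzymes that carry the signal onwards were mostly above the limit. Called above were 75% of the G protein subunits and 71.4% of the phospholipases and protein kinases, beside 49.8% of all genes. The receptor kinases, arrestins and RGS proteins, at 42.9%, lay under that share. These differences were not tested. Of 20 G protein subunits 15 (75%) were called above, among them Gnai2 (12.20), Gnai3 (11.19), Gna11 (10.99 ± 0.28, SD, n = 3), Gnaq (10.58 on all arrays), Gna12 (9.08) and Gnai1 (8.16). The subunits Gnal (6.51) of olfactory neurons and striatum, Gnaz (7.59) and Gna14 (7.29) were called below, and Gnao1 (7.88) could not be told from the limit. Of 14 phospholipases and protein kinases 10 were called above, including Plcb4 (10.80), Plcb3 (9.70), Plcb1 (9.61), Prkar1a (10.71), Prkacb (10.30) and Prkar2a (9.36 ± 0.44), whereas Plcb2 (7.48), Prkar2b (7.57), Prkca (7.38) and Prkg2 (6.76) were called below. Of 14 receptor kinases, arrestins and RGS proteins, which end receptor signals, 6 were called above, namely Rgs2 (10.68), Rgs3 (9.61), Grk5 (9.13), Rgs19 (8.94), Arrb1 (8.83 ± 0.31) and Rgs14 (8.48). Grk3 (7.10) and Grk4 (7.21) were called below, and Grk6 (7.81) and Arrb2 (7.94) could not be told from the limit.

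Receptors for other vasoactive mediators were called above the background limit in 13 of 28 genes (46.4%), beside 17 of 64 here and 49.8% of all genes, differences that were not tested. They included the endothelin receptor Ednrb (12.78), the adrenomedullin and CGRP receptor Calcrl (12.72) with its partners Ramp2 (11.33) and Ramp3 (11.68), the apelin receptor Aplnr (11.79 ± 0.78, SD, n = 3) and the prostaglandin receptor Ptger1 (9.04). The angiotensin receptors Agtr1a (7.80) and Agtr2 (7.39), Ramp1 (7.30) and Mas1 (7.33) were not called above it.

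**Figure D4:**
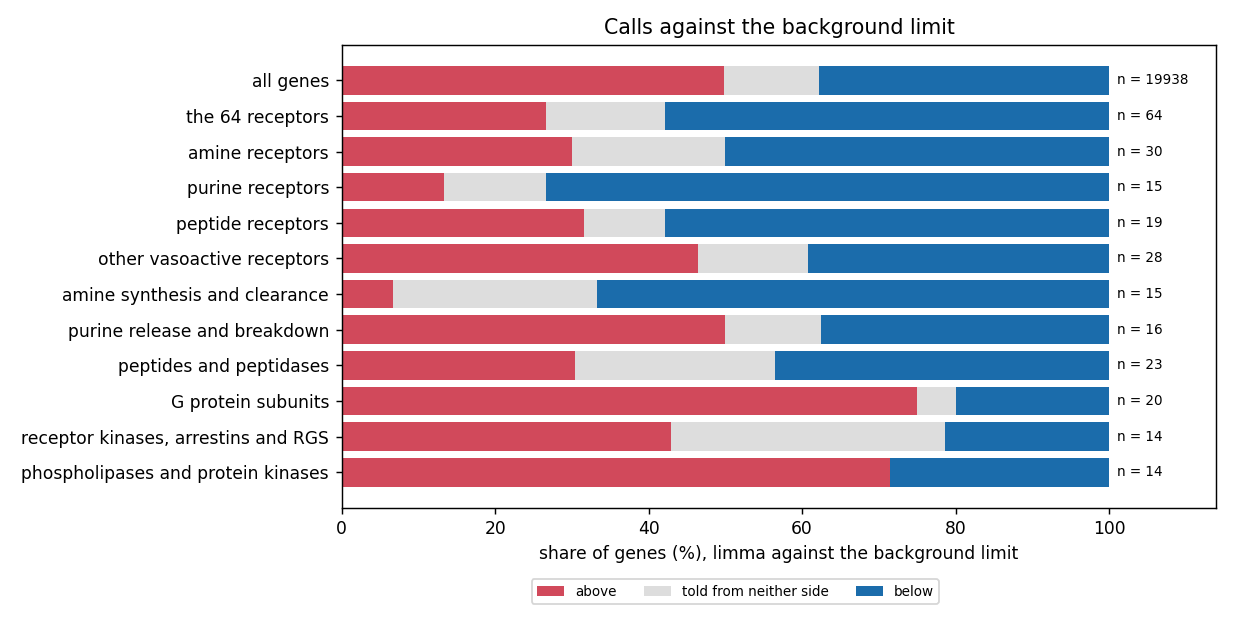
Share of genes (x axis, percent) called above, below or on neither side of the background limit by limma, for all genes, the 64 receptors and their ligand classes, and lists of ligand, clearance and signaling genes, with the number of genes measured at the right. The receptors were called above in 26.6% and all genes in 49.8%, and the G protein subunits in 75%.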

How the data were processed

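Endothelial RNA from 3 samples, each a pool of 2 kidneys, went through 1 round of amplification before hybridization to Affymetrix mouse gene arrays. The study calls its samples independent. The values deposited by the authors are on a log2 scale, as read from their range of 3.55 to 14.4. The labels name Affymetrix Expression Console, whereas the study names RMA in GeneSpring, and no source used here gives a genome build. Whether 100 units on this scale equals the raw level of 100 in the study is not settled. Without scanner files or dates, no batch was examined.

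Of 35557 probe sets, 21789 named 1 gene in the platform annotation, 1621 several and 12147 none, and 21698 matched RefSeq (GRCm38.p6). limma 3.58.1 (R 4.3.3) was fitted with an intercept only to level minus limit, two-sided, with Benjamini-Hochberg adjustment over 19938 genes. The prior variance came from genes with 3 different values, and intervals are moderated 95% intervals. The fit was tested on simulated data. Python 3.11.15, numpy 2.4.6, pandas 2.3.3 and matplotlib 3.10.9 were also used. Alternatives changed the limits, the probe set rule, the normalization, the prior, the features fitted and the arrays.

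The members, lists and limits were chosen with earlier results of these data known. By rule all members are named, those above the background limit and the 5 with the largest SD with each array's value. Of each list of related genes up to 6 above the limit and up to 4 others are named in list order, and of each marker list the first 4 and any with an SD over 0.5. Other marker genes were named after their values were seen.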

Additional observations from a re-analysis of the deposited data

How the results depend on the processing

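Npr1, Npr2, Npr3 and P2rx4 were called above the background limit as reported and under all 14 alternatives. The other 13 calls above it were lost at the highest limit tried. With the 99th percentile of the sensory receptors (8.73) only those 4 were called above and 58 below, 5 passed on all arrays, Chrm1 could not be told from the limit, and the differences from it turned to -0.06 for P2rx7, -0.23 for Avpr2, -0.39 for Htr2a and Hrh2, -0.40 for Htr2b, -0.41 for Vipr1, -0.42 for Chrm4, -0.48 for Hrh1, -0.52 for Chrm3, Drd4 and Bdkrb1, -0.54 for Htr1b and -0.57 for Htr6. With the 90th percentile (7.61) 26 were called above, Chrm3 among them, 26 below, and 34 passed on all arrays. With the lower of its probe sets Vipr1 lay at -0.33, and with their mean it could not be told from the limit. Against 200 units 26 were called above, 27 below and 31 passed on all arrays, and against 50 units 2 were called below. With all probe sets in the fit Htr1b and Htr6 lost their calls, and Htr6 also when genes with a single value were given the prior variance. Leaving out each array in turn gave 17 called above the background limit each time (10 of these have the same value on all arrays, so that their means could not move), 36 to 37 below, and 22 to 23 passing, and against 100 units 54 to 55 above, 5 to 6 below and 56 passing. The default eBayes prior gave 21 above and 39 below the background limit, and so did the eBayes prior with trend and robust fit. The calls that these priors added were for receptors outside the 20 followed, which the main fit could not tell from the limit. For those 20, no alternative besides the limits, probe set rules and fits named before changed a call. Over all genes, 9938 above and 7542 below the background limit became 5832 and 12033 with the 99th percentile, and 2390 below 100 units became 834 at 50 units and 5898 at 200. With all 35557 probe sets in the fit, which adds features, 15202 were above and 13809 below the background limit, and 25943 above (16541 in the fit of genes) and 5700 below 100 units. No paired analysis was possible because there is 1 group. Signal over background could not be read per probe, so weak receptors cannot be told from unspecific signal.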

Other observations

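The probe set shared by Tmigd3 and the adenosine receptor gene Adora3 stood at 8.22 in replicate 1 and at 8.26 in the other arrays, over the background limit, and cannot be assigned to either gene. For P2rx3 the second probe set gave a mean of 7.07, close to the 7.20 used. Neighboring pairs among the receptors in RefSeq, besides P2rx7 and P2rx4, were Bdkrb2 and Bdkrb1, P2ry13 and P2ry12, P2ry6 and P2ry2, Npy5r and Npy1r, and Htr3a and Htr3b.

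Of the marker lists not yet described in full, the endothelial genes Cdh5 and Tek stood at means of 12.71 and 12.80. Of 7 fibroblast genes 3 were called above the background limit, with Col1a1 at 8.81, Col1a2 at 8.31, Col3a1 at 8.17 and Dcn at 7.26. Of 8 thick ascending limb genes 4 were called above, and beside Umod the list held Kcnj1 at 8.84, Cldn16 at 7.25 and Slc12a1 at 9.68, 8.07 and 7.81 in replicates 1, 2 and 3. In the collecting duct list Aqp3 stood at 8.55, Aqp4 at 8.14 and Hsd11b2 at 8.25. Of 8 proximal tubule genes 2 were called above, with Slc34a1 at 8.40, Lrp2 at 7.28, Cubn at 6.30 and Miox at 6.74. Of 9 nerve genes 2 were called above, Sox10 at 8.61 and Uchl1 at 10.37, 9.33 and 9.64 in replicates 1, 2 and 3, while Rbfox3 stood at 8.03, Snap25 at 7.21 and Syt1 at 7.48. Among mural genes Myh11 stood at 7.98, Tagln at 7.80 and Cnn1 at 7.65, and among leukocyte genes Itgam stood at 6.84.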
